A study of Mus musculus with 24 samples.

Results

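The interferon regulatory factors are transcription factors that share an N-terminal DNA-binding domain and recognise GAAA-containing elements in the promoters of interferon-response genes. mRNA of 8 of them, Irf1, Irf2, Irf3, Irf4, Irf5, Irf7, Irf8 and Irf9, was followed by RNA sequencing in CD4+ T cells. The members were taken by gene symbol, without use of their values but with earlier results of these data known. They are 8 of the 22009 named genes in the table of all 24 libraries. Resting cells gave 2 libraries and came from spleen of adult WT C57BL/6 mice, by negative magnetic selection. Th0 cultures received anti-CD3e and anti-CD28, Th1 cultures the same with recombinant IL-12 added and IL-4 blocked by anti-IL-4, and Th2 cultures the same with recombinant IL-4 added and anti-IL-12 and anti-IFN-γ as blocking antibodies. Each of the 3 conditions was sequenced once at 4, 8, 12, 16, 20 and 24 h, from cells pooled from 6 mice, so that no combination of condition and time had a replicate. In the remaining 4 libraries, actinomycin, which blocks transcription, was present for 0, 1, 2 or 4 h after a stimulation of 16 h. For these 4 no skewing condition is stated. The labels describe purified CD4+ cells and the methods naive ones, and the resting libraries carry another tag than the cultures, so preparation and activation cannot be told apart.

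Members of the family take different places in interferon signalling. Irf3, Irf5 and Irf7 are activated by phosphorylation downstream of nucleic acid sensors and drive type I interferon genes, whereas Irf9 is a subunit of ISGF3, the complex that carries the type I interferon signal to its target genes. Irf1 is a classical target of IFN-γ, Irf2 binds the same elements and often opposes it, and Irf4 and Irf8 work largely with partner proteins such as Batf, Jun and the Ets factors PU.1 and Spi-B. In T cells, Irf4 is induced by antigen receptor signalling and is required for effector differentiation, including the Th2 fate, and Irf1 is known for its part in Th1 responses.

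Levels are given in RPKM, a read count divided by transcript length and by the library's mapped reads, so that genes can be compared per length. The libraries held between 17512385 and 33017133 mapped reads, so that 1 RPKM over 1 kb stood for 17.5 to 33.0 reads. The T cell markers summed to 1484 and 1495 RPKM in the resting libraries and to 885 to 1051 RPKM in the cultures, with all 5 of the markers in the table detected. All 10 macrophage and monocyte markers were detected too, and they summed to 486 and 508 RPKM in resting cells, 44.7 to 76.3 RPKM at 4 h and 7.78 to 12.4 RPKM at 24 h. B cell markers, of which all 10 were detected, summed to 80.6 and 90.9 RPKM in resting cells and to 10.9 to 19.8 RPKM at 24 h, and the 8 dendritic cell markers to 18.4 and 20.5 RPKM and to 3.63 to 5.33 RPKM. The 3 NK cell markers summed to 36.2 and 37.3 RPKM at rest and 4.75 to 6.88 RPKM at 24 h. The 6 red cell transcripts summed to 38691 and 42233 RPKM at rest, 29312 to 47024 RPKM at 4 h, 1466 to 2035 RPKM at 16 h and 141 to 211 RPKM at 24 h. Members of the family, among them Irf4, Irf5, Irf7 and Irf8, are also expressed in immune cells other than T cells. The part of any of the cell types other than T cells in the changes of the 8 members from rest was not tested. In these bulk samples fewer cells of a type and less RNA per cell cannot be told apart.

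In resting cells Irf1 was the most abundant member and Irf4 the least. Irf1 stood at 174 ± 0.97 RPKM (SD, n = 2) and made up 37.4% of the summed RPKM of the 8 members. It was followed by Irf7 at 77.0 ± 1.19 RPKM (SD, n = 2), Irf3 at 64.7 ± 2.79 RPKM (SD, n = 2), Irf9 at 62.0 ± 0.0811 RPKM (SD, n = 2) and Irf2 at 40.4 ± 1.15 RPKM (SD, n = 2). The gap between Irf3 and Irf9 was smaller than the SD of Irf3, and all other neighbours in the order were further apart than their spread. Irf8 had 23.9 ± 1.04 RPKM (SD, n = 2), Irf5 13.5 ± 0.773 RPKM (SD, n = 2) and Irf4 10.5 ± 0.0531 RPKM (SD, n = 2). After 24 h the order had turned. Irf4 led in Th0 and Th2 and Irf8 in Th1, and Irf7, second at rest, was the lowest of the 8 in all 3 conditions. Irf4 alone made up 59.0% of the members' summed RPKM in Th2 at 24 h, against 2.24% in resting cells.

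**Figure D1:**
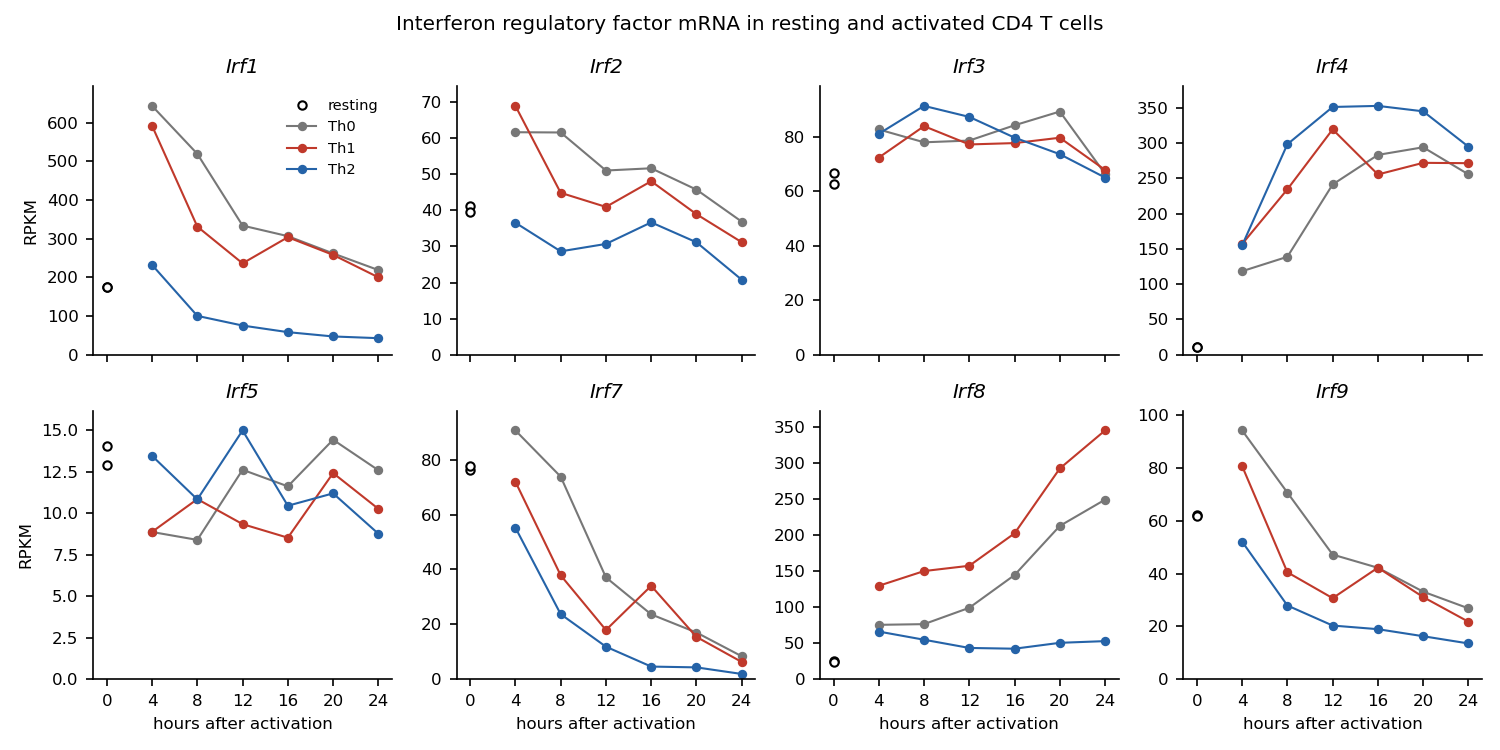
RPKM of the 8 members (vertical axes, from 0) against hours after activation, with 1 point per library: open circles are the 2 resting libraries and filled points the Th0, Th1 and Th2 cultures. Irf4 stands at 10.4 and 10.5 RPKM at rest and above 118 RPKM in every culture, Irf8 climbs to 249 RPKM in Th0 and 345 RPKM in Th1 but not in Th2, and Irf7 and Irf9 fall to their lowest levels at 24 h.

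Activation was compared with rest with limma on log2(RPKM + 0.5), taking the 3 cultures of a time point as its libraries, and a change was called at an adjusted p under 0.05 (Benjamini-Hochberg over all genes averaging 1 RPKM or more) and at least 2-fold. Irf4 was called higher at all 6 time points and Irf8 from 16 h on, whereas Irf7 was called lower from 12 h on and Irf9 at 20 and 24 h. With a term for the condition, Irf8 was called from 4 h on and Irf1 at 4 h as well. Thus without that term 1 of 8 members was called at 4 h, where 10.6% of all 10897 genes tested were called, 2.61% higher and 7.97% lower. At 8 h 1 of 8 was called (18.9% of all genes, 6.42% higher and 12.5% lower) and at 12 h 2 of 8 (27.1%, 10.7% higher and 16.4% lower). At 16 h there were 3 of 8 (25.7%, 11.2% higher and 14.5% lower), at 20 h 4 of 8 (29%, 12.9% higher and 16.1% lower) and at 24 h 4 of 8 (30.1%, 12.7% higher and 17.4% lower). At 4, 8, 12 and 16 h the members' counts were near the share of all genes. Without either resting library the counts were 1 at 12 h, 1 at 16 h and 2 at 20 h, without the Th1 cultures 1 at 12 h and 2 at 20 h, and without the Th2 cultures 3 at 4 h and 3 at 8 h. The shares of all genes above belong to the fit of all libraries. They cannot be set against these refit counts. Nothing says that the resting libraries came from separate purifications, and the cultures came from 1 pool of cells, so the p-values measure only the spread between these libraries.

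Conditions were compared over the 18 cultures with time as a blocking factor, and the Th2 condition stood apart from the other two. The libraries of a condition are successive time points of the same pool of cells. The p-values between conditions therefore measure the spread between time points, not between replicate cultures. In Th2 against Th0, 4 of 8 members were called lower, Irf1, Irf7, Irf8 and Irf9, and none higher, where 2.01% of all 10737 genes were called, 1.83% lower and 0.186% higher. In Th2 against Th1, 3 of 8 were called lower, Irf1, Irf7 and Irf8, where 1.96% of all genes were called, 1.39% lower and 0.568% higher. In Th1 against Th0 limma called none of the 8, where 0.494% of all genes were called, 0.317% lower and 0.177% higher, and Irf2, Irf8 and Irf9 had an unadjusted p under 0.05. The Th2 cultures serve in both of the first 2 comparisons, which are therefore not independent of each other. The 3 counts were the same without the Th1 library at 8, 12 or 16 h, and against Th1 the count was 2 without all cultures at 16 h.

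**Figure D2:**
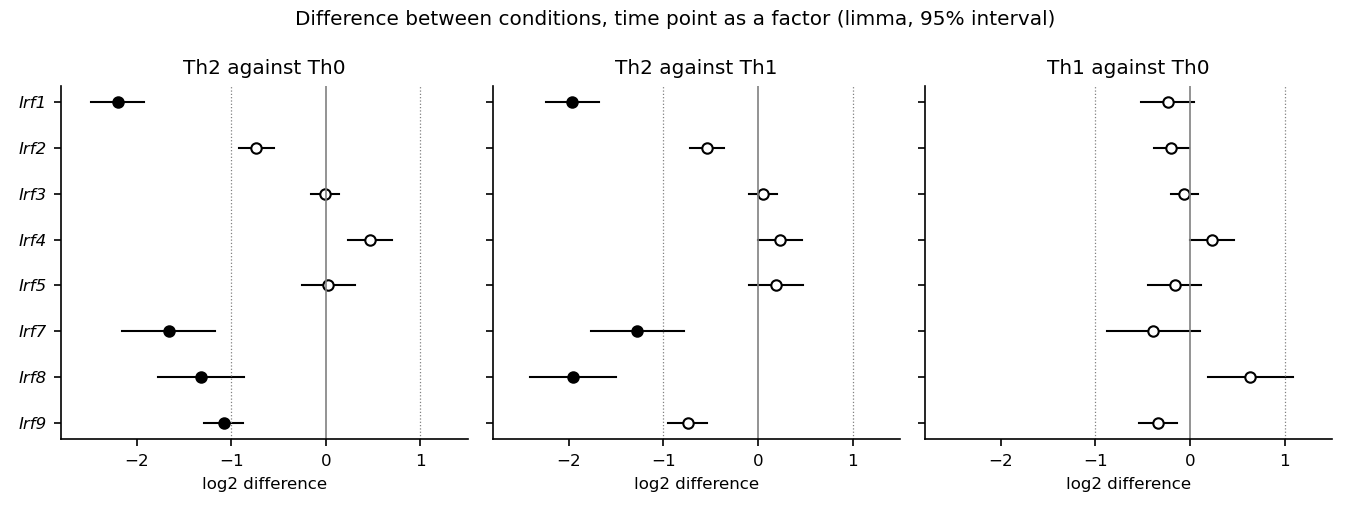
Log2 difference of each member between conditions (horizontal axis, limma, 18 cultures, bars are 95% intervals), with filled points for called differences and dotted lines at 2-fold. Irf1, Irf7 and Irf8 are filled on the negative side against both Th0 and Th1, Irf9 against Th0 only by this threshold, and Irf3 and Irf5 lie near 0.

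Irf1, the IFN-γ target, lies on chromosome 11 (ENSMUSG00000018899.16, chr11:53770014-53778374, plus strand, GRCm38), and its exons overlap Gm17334 on the other strand. It had the largest log2 difference between Th2 and Th0 of the 8 members. Its level at 4 h was 643 RPKM in Th0 and 592 RPKM in Th1 but 232 RPKM in Th2, against 175 and 174 RPKM in the resting libraries. In Th0 it ran from 219 to 643 RPKM over the 6 times with a median of 320.1 RPKM, in Th1 from 199.8 to 592 RPKM with a median of 281 RPKM, and in Th2 from 42.4 to 232 RPKM with a median of 66.5 RPKM. All Th0 and Th1 libraries were above both resting libraries, whereas in Th2 only the 4 h library was, and the other 5 were below. Within each condition the 24 h library was the lowest. At matched times Irf1 was 2.77-fold lower in Th2 than in Th0 at 4 h and 4.45- to 5.59-fold lower from 8 h on. The log2 difference was -2.20 for Th2 against Th0 (standard error 0.13, adjusted p = 1.41e-08, limma) and -1.96 for Th2 against Th1 (standard error 0.13, adjusted p = 4.97e-08, limma). Between Th1 and Th0 it was -0.24 (95% interval -0.52 to 0.04, adjusted p = 0.383, limma). Against rest Irf1 was called at no time point in the fit of all 20 libraries, with an unadjusted p under 0.05 at none. At 4 h the log2 change of Irf1 was 1.35 (standard error 0.95, adjusted p = 0.307, limma). Without the Th2 cultures Irf1 passed the threshold at 4 h (1.82, adjusted p = 3.68e-05, limma) as well as at 8 h (1.25, adjusted p = 0.00034, limma). With a term for the condition, Irf1 at 4 h also passed it (adjusted p = 5.02e-05, limma).

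The promoters of Irf1, Irf2 and Irf8 are shown because these were the members with a match to the GAS core TTCNNNGAA, an element known from IFN-γ-responsive promoters, among the 250 bases before a RefSeq start (both strands, GRCm38.p6). All 8 members had an entry, with 11 starts in all. The GAS core was present before 7.02% of all 32851 starts. The ISRE core (GAAA, 2 bases of any kind, GAAA), the element of the IRF family itself, was found in Irf2 alone among the 8, against 2.98% of all starts. The core of Stat6, which carries the IL-4 signal (TTC, 4 bases of any kind, GAA), was found before 5.85% of all starts and in none of the 8 members, and a form of the NF-κB site (GGG, 3 bases of any kind, TTCC) before 4.65% and in Irf2. No match overlapped another in the windows of the 8 members. A match is a description of the letters, not a binding site. Positions count back from -1, the base before the start. In Irf1 the match was TTCCCCGAA from -90 to -82, in Irf8 there were matches TTCTCGGAA from -171 to -163 and TTCAGAGAA from -153 to -145, and in Irf2 GAAAATGAAA from -241 to -232 was followed by TTCCGAGAA from -224 to -216. Capitals in the sequences, given 5′ to 3′ on the plus strand, mark the ISRE and GAS matches. The windows are chr11:53769764-53770013 for Irf1, chr8:120736108-120736357 for Irf8 and chr8:46739495-46739744 for Irf2.
Irf1: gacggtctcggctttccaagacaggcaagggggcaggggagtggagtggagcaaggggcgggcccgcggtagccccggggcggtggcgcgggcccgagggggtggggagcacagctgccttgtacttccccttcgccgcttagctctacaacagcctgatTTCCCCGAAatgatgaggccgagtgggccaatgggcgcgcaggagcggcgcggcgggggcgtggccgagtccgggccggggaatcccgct
Irf8: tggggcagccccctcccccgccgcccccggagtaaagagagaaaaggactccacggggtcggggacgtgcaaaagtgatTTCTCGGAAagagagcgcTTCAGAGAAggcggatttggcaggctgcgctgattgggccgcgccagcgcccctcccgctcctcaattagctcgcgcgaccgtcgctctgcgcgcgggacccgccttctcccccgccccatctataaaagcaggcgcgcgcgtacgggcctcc
Irf2: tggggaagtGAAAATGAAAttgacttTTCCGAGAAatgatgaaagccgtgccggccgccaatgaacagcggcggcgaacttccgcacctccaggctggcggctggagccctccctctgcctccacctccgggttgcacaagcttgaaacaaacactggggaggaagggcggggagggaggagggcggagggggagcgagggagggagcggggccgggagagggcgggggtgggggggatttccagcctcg

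Irf2 (ENSMUSG00000031627.9, chr8:46739732-46847458, plus strand), which can act as a repressor of the elements that Irf1 activates, moved with Irf1 but over a much narrower range. The resting libraries had 41.2 and 39.6 RPKM. Irf2 in Th0 ran from 36.9 to 61.7 RPKM with a median of 51.4 RPKM, in Th1 from 31.2 to 69.0 RPKM with a median of 42.9 RPKM, and in Th2 from 20.8 to 36.7 RPKM with a median of 30.9 RPKM. Every Th2 library was below every Th0 library and below both resting libraries. The values of Irf2 are whole multiples of the step that 1 read adds, and correspond to 1320 reads for the lowest library, Th2 at 24 h (exact Poisson 95% interval 19.7 to 21.9 RPKM), and 3828 reads for the highest, Th1 at 4 h (66.9 to 71.3 RPKM). These intervals cover counting error only, and for the other 7 members, whose values did not fall on 1 step, none is given. The log2 difference of Irf2 was -0.74 for Th2 against Th0 (standard error 0.09, adjusted p = 1.96e-05, limma) and -0.54 for Th2 against Th1 (standard error 0.09, adjusted p = 0.000472, limma), each less than 2-fold and so not called. The ratio of Irf1 to Irf2 was 4.31 in resting cells. In Th2 it was 6.34 at 4 h and between 1.5 and 3.49 from 8 h on, whereas in Th0 and Th1 it stayed between 5.72 and 10.4.

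Irf8 (ENSMUSG00000041515.10, chr8:120736358-120756694, plus strand), best known from macrophages, dendritic cells and B cells, had the steepest slopes of the 8 for the difference of Th2 from Th0 and from Th1 over time. Resting cells had 24.7 and 23.2 RPKM. In Th1 the level was 129 RPKM at 4 h, 150 RPKM at 8 h, 157 RPKM at 12 h, 202 RPKM at 16 h, 292 RPKM at 20 h and 345 RPKM at 24 h. In Th0 it was 75.2, 76.1, 98.8, 144, 212 and 249 RPKM at the same times. In Th2 it was 65.9 RPKM at 4 h and stayed between 42.1 and 54.5 RPKM afterwards. All cultures were above both resting libraries, each Th1 value was above the Th0 value of its hour, and every Th2 library was below every Th0 and every Th1 library. Irf8 was called higher than at rest at 16 h (log2 change 2.14, adjusted p = 0.0361, limma), 20 h (2.59, adjusted p = 0.0128) and 24 h (2.76, adjusted p = 0.00831, standard error 0.84, limma). The calls of Irf8 at 16 and 20 h were lost without either resting library (adjusted p between 0.0553 and 0.126, limma), without the Th0 cultures and without the Th1 cultures (adjusted p between 0.0524 and 0.152, limma), and the call at 24 h was lost without the Th0 cultures (log2 change 2.47, adjusted p = 0.0691, limma). Without the Th2 cultures, Irf8 was called already at 4 h (2.02, adjusted p = 0.00106, limma), 8 h (2.13, adjusted p = 0.000566) and 12 h (2.36, adjusted p = 0.000169). With all cultures and a term for the condition it was called at these times too, with log2 changes of 1.81 to 1.85 (adjusted p = 0.000278, 0.000164 and 9.47e-05, limma), as it was when each time point was fitted with the resting libraries alone (adjusted p = 0.00328, 0.0221 and 0.0123, limma).

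Irf8 in Th2 was 1.14-fold lower than in Th0 at 4 h and 4.73-fold lower at 24 h, and against Th1 the fold grew from 1.96 to 6.55. Averaged over time, the log2 difference was -1.32 for Th2 against Th0 (standard error 0.21, adjusted p = 0.000366, limma) and -1.96 for Th2 against Th1 (standard error 0.21, adjusted p = 1.05e-05, limma). The change of the difference with time was tested as the slope of the log2 difference per hour, called at an adjusted p under 0.05. These p-values too measure only the spread between time points of the same pool of cells. Irf8 had -0.11 per hour for Th2 against Th0 (adjusted p = 5.05e-05, limma) and -0.09 per hour for Th2 against Th1 (adjusted p = 0.000533, limma). For Th2 against Th0, 2 of 8 members were called, Irf8 and Irf5, where 5.15% of all genes were, 4.05% with a negative slope and 1.1% with a positive one. For Th2 against Th1, Irf8 was the 1 member called, where 1.09% of all genes were, 0.81% negative and 0.279% positive. Without 8 h there were 3, Irf1 (adjusted p = 0.038, limma), Irf5 (adjusted p = 0.0455, limma) and Irf8. For Th1 against Th0 limma called none of the members, where 0.0279% of all genes were called, 0.0186% positive and 0.00931% negative, and Irf4 and Irf8 had an unadjusted p under 0.05. Irf8 was higher in Th1 than in Th0 at 6 of 6 times, by 1.38- to 1.97-fold, but the log2 difference of 0.64 did not pass the threshold (95% interval 0.19 to 1.09, adjusted p = 0.151, limma). At 24 h the summed B cell markers in Th0, Th1 and Th2 were 15.7, 10.9 and 19.8 RPKM, and the summed macrophage markers 11.1, 12.4 and 7.78 RPKM. Their part in the level of Irf8 was not tested.

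**Figure D3:**
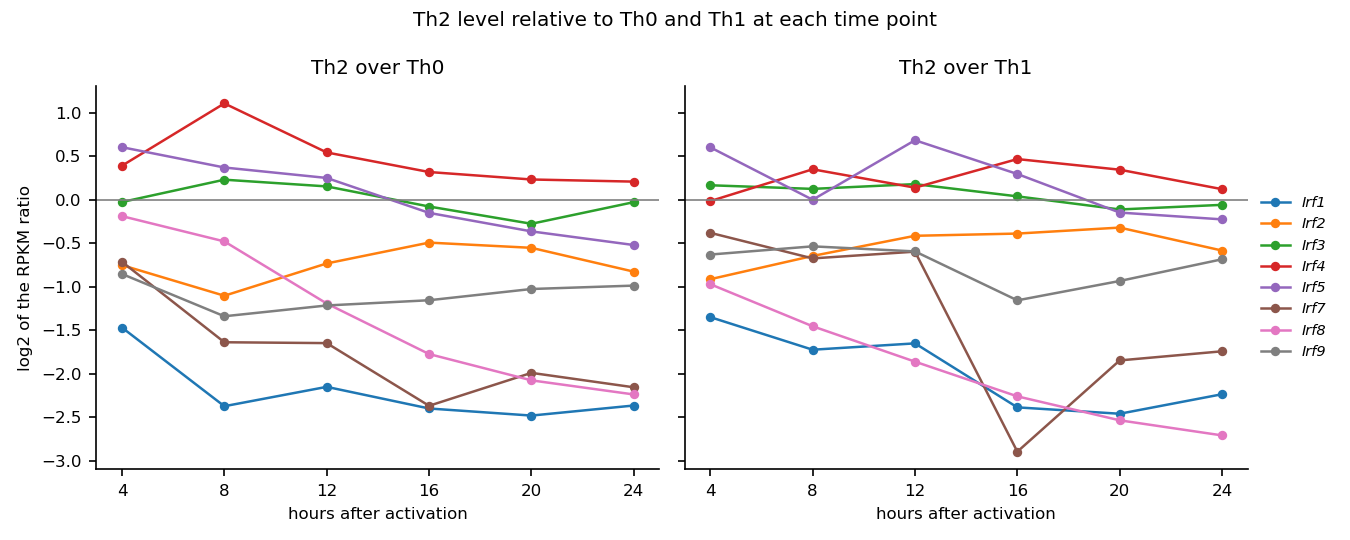
Log2 of the RPKM ratio of Th2 over Th0 (left) and Th2 over Th1 (right) at each hour after activation, with 1 line per member and no error, since each point compares 1 library with 1 other. The Irf8 line falls with time in both panels, Irf1 is below -1 throughout, Irf4 lies above 0 at 6 of 6 times against Th0, and Irf7 has its lowest point at 16 h, where the ratio of Th1 to Th2 was 7.46.

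Irf4 (ENSMUSG00000021356.10, chr13:30749226-30766976, plus strand), which couples the strength of antigen receptor signalling to effector programmes, had the largest rise of the 8. It had 10.4 and 10.5 RPKM in resting cells. At 4 h Irf4 already stood at 118 RPKM in Th0, with 157 RPKM in Th1 and 155 RPKM in Th2. Irf4 was highest at 20 h in Th0 (294 RPKM), at 12 h in Th1 (319.5 RPKM) and at 16 h in Th2 (353 RPKM). Every culture was thus at least 11.3-fold above the resting mean, and the 16 h Th2 library was 33.8-fold above it. Against rest the 4 h log2 change was 3.70 (adjusted p = 1.14e-08, standard error 0.24, limma), and it was between 4.29 and 4.79 from 8 to 24 h (adjusted p between 6.56e-11 and 9.48e-10, limma). Irf4 was higher in Th2 than in Th0 at 6 of 6 times, by 1.15- to 2.15-fold, with the widest gap at 8 h. The log2 difference was 0.46 (standard error 0.11, adjusted p = 0.00631, limma), below 2-fold. Against Th1 the Th2 level was higher at 5 of 6 times, and the log2 difference was 0.23 (95% interval -0.002 to 0.47, adjusted p = 0.202, limma).

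Set side by side, the closely related Irf4 and Irf8 were both above the resting libraries in all cultures and parted most in Th2. Irf4 was 0.437 times Irf8 in resting cells. In Th2 the ratio of Irf4 to Irf8 was 2.35 at 4 h and reached 8.38 at 16 h. In Th1 it was 2.04 at its highest, at 12 h, and 0.788 at 24 h. Th0 likewise had its highest ratio, 2.44, at 12 h and its lowest, 1.03, at 24 h. The Th2 values at 8 h and later, from 5.47 to 8.38, were above all values in Th0 and Th1.

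Irf7 (ENSMUSG00000025498.15, chr7:141262706-141266481, minus strand, exons overlapping Phrf1 on the other strand), the amplifier of the type I interferon response, lost most of its mRNA over 24 h. Resting cells had 76.1 and 77.8 RPKM. In Th0 Irf7 was at 90.7 RPKM at 4 h, 37.1 RPKM at 12 h and 8.33 RPKM at 24 h. In Th1 it was at 72.0 RPKM at 4 h, 17.9 RPKM at 12 h, 34.0 RPKM at 16 h and 6.25 RPKM at 24 h. In Th2 it was at 55.2 RPKM at 4 h, 11.8 RPKM at 12 h and 1.87 RPKM at 24 h, which was 41.3-fold below the resting mean. Only the 4 h Th0 library was above the resting libraries, and all others were below both. The log2 change of Irf7 was -1.92 at 12 h (adjusted p = 0.0367, limma), -2.26 at 16 h (adjusted p = 0.0168), -2.82 at 20 h (adjusted p = 0.004) and -3.90 at 24 h (adjusted p = 0.000294, standard error 0.76, limma). The call of Irf7 at 12 h was lost without either resting library (adjusted p of 0.117 and 0.123, limma) and without the Th1 cultures (adjusted p = 0.12, limma), and that at 16 h without either resting library (adjusted p of 0.0709 and 0.0743, limma). At 4 h the log2 change was -0.11, and 0.07 without the Th2 cultures.

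Between conditions Irf7 was 1.64- to 5.17-fold lower in Th2 than in Th0 and 1.30- to 7.46-fold lower than in Th1, at 6 of 6 times each. The log2 difference was -1.66 for Th2 against Th0 (standard error 0.23, adjusted p = 0.000101, limma) and -1.27 for Th2 against Th1 (standard error 0.23, adjusted p = 0.00131, limma). The latter rests in part on the 16 h cultures, without which the log2 difference of Irf7 was -0.97 (adjusted p = 0.0041, limma), below 2-fold. The Th1 library at 16 h had more Irf7 than those at 12 h (17.9 RPKM) and 20 h (15.4 RPKM). The same library also had more Irf1 (304 RPKM against 236 and 258 RPKM), more Irf2 (48.1 RPKM against 41.0 and 39.0 RPKM) and more Irf9 (42.2 RPKM against 30.7 and 31.1 RPKM). Across all genes its highest r was with the Th1 library at 12 h (0.992), where the highest r of each culture ran from 0.978 to 0.993. The Th0 library at 16 h had 306 RPKM of Irf1, 51.7 RPKM of Irf2, 42.2 RPKM of Irf9 and 23.6 RPKM of Irf7. Its highest r was with the Th1 library at 16 h (0.992). What set the values of the Th1 library at 16 h was not tested.

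Irf9 (ENSMUSG00000002325.15, chr14:55603571-55610030, plus strand, exons overlapping Rnf31 on the same strand), the DNA-binding subunit of ISGF3, followed a course like that of Irf7 with smaller steps. It had 62.1 and 62.0 RPKM in resting cells. Irf9 in Th0 had 94.2 RPKM at 4 h and 26.8 RPKM at 24 h, in Th1 80.7 and 21.7 RPKM, and in Th2 52.1 and 13.5 RPKM. All 6 Th2 libraries were below both resting libraries, whereas at 4 h the Th0 and Th1 libraries were above them. The 20 h log2 change was -1.26 (adjusted p = 0.0218, limma), and the 24 h change was -1.62 (adjusted p = 0.0049, standard error 0.45, limma). At 20 h the call of Irf9 was lost without either resting library (adjusted p of 0.0849 and 0.0832, limma), without the Th1 cultures (adjusted p = 0.0676, limma), and without the Th2 cultures, where the log2 change was -0.94. Irf9 was 1.81- to 2.53-fold lower in Th2 than in Th0 (log2 difference -1.08, standard error 0.09, adjusted p = 1.08e-06, limma). Against Th1 it was 1.45- to 2.23-fold lower, and the log2 difference of -0.74 (standard error 0.09, adjusted p = 5.47e-05, limma) was below 2-fold.

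Irf3 and Irf5 had the narrowest ranges of the members over the time course. Irf3 (ENSMUSG00000003184.15, chr7:44997648-45002848, plus strand, exons overlapping Bcl2l12 on the other strand) had 62.8 and 66.7 RPKM in resting cells. In Th0 it ran from 66.4 to 89.3 RPKM with a median of 80.7 RPKM, in Th1 from 67.8 to 83.9 RPKM with a median of 77.5 RPKM, and in Th2 from 65.0 to 91.4 RPKM with a median of 80.4 RPKM. The conditions overlapped fully, and 16 of the 18 cultures were above both resting libraries. The log2 change of Irf3 was between 0.31 and 0.38 from 8 to 20 h (adjusted p between 0.00655 and 0.0163, limma), well below 2-fold. The log2 difference of Th2 against Th0 was -0.01 (95% interval -0.15 to 0.14, limma) and its sign turned with the scaling.

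Irf5 (ENSMUSG00000029771.12, chr6:29526625-29541871, plus strand, exons overlapping Tnpo3 on the other strand), a member with a major part in myeloid and B cells, was low throughout. It had 12.9 and 14.0 RPKM in resting cells, 8.39 to 14.4 RPKM in Th0, 8.52 to 12.4 RPKM in Th1 and 8.76 to 15 RPKM in Th2. The groups overlapped, and no time point or condition was called. The slope of the difference of Th2 against Th0 was called for Irf5 at -0.06 per hour (adjusted p = 0.0311, limma), with Th2 above Th0 at 4, 8 and 12 h and below it at 16, 20 and 24 h. This call was lost without 16 h (adjusted p = 0.0674, limma), without 20 h (adjusted p = 0.124, limma) and without 24 h (adjusted p = 0.133, limma), which left 1 of 8 members called, Irf8. Without 4 h there were 3, with Irf4 (-0.05 per hour, adjusted p = 0.0186, limma). At 24 h Irf5 had 12.6, 10.3 and 8.76 RPKM in Th0, Th1 and Th2.

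With transcription blocked, 4 members had a called negative slope, 1 a called positive slope and 3 no called slope. RPKM is relative to all mRNA left, so a slope near 0 means a decline like that of the median gene, and the median slope of all 10571 genes tested was 0.00 on the log2 scale per hour. Irf4 went from 317 RPKM at 0 h over 264 RPKM at 1 h and 148 RPKM at 2 h to 111 RPKM at 4 h. Irf1 had 176, 144, 94.9 and 67.6 RPKM at the same times, and Irf2 had 31.7, 28.5, 18.3 and 15.1 RPKM. All 3 fell at every step. Irf8 fell from 80.9 over 62.3 to 36.8 RPKM at 2 h and had 39.1 RPKM at 4 h. The slope per hour was -0.40 for Irf4 (adjusted p = 9.67e-09, limma), -0.35 for Irf1 (adjusted p = 1.31e-07, limma), -0.28 for Irf2 (adjusted p = 0.000208, limma) and -0.27 for Irf8 (adjusted p = 0.00014, limma). Irf7 went the other way, with 7.89 RPKM at 0 h, 7.54 RPKM at 1 h, 9.39 RPKM at 2 h and 17.2 RPKM at 4 h, and a slope of 0.29 per hour (adjusted p = 0.000845, limma). In all, 5 of 8 members were called, where 20.9% of all genes were, 12% falling and 8.95% rising. These p-values come from 1 library per time, without replicates. They measure the spread around a straight line, estimated largely from all genes together.

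Irf3 also had a lower value at every step, with 66.4, 58.1, 50.9 and 48.1 RPKM, and an unadjusted p of 0.044 (limma). Irf9 (20.2 RPKM at 0 h and 23.7 RPKM at 4 h), Irf5 (8.66 and 7.09 RPKM) and Irf3 had no called slope, with adjusted p of 0.631, 0.491 and 0.139 (limma). By the exact permutation of the 4 times over all 24 orders, two-sided p was 0.0417 for Irf1, Irf2 and Irf4, the smallest it can give, 0.0833 for Irf3 and Irf7, 0.167 for Irf8 and Irf9 and 0.208 for Irf5. The call of Irf7 rests on the 4 h library, without which its slope was 0.12 (adjusted p = 0.703, limma). Irf8 was not called without the 0 h library (-0.18, adjusted p = 0.263, limma), and Irf2 was called neither without the 0 h library (adjusted p = 0.0687, limma) nor without the 4 h library (adjusted p = 0.0561, limma), so that 3 members were called in each of these fits. The macrophage markers summed to 54.3, 66.1, 78.1 and 59.9 RPKM in these 4 libraries against 11.5 to 27.4 RPKM in the 16 h cultures. The B cell markers went the other way, with 4.03 to 5.15 RPKM against 20.3 to 22.0 RPKM. So did the dendritic cell markers (3.81 to 5.14 against 6.52 to 8.02 RPKM) and the NK cell markers (0.459 to 1.46 against 5.52 to 9.71 RPKM). The part of these cell types in the slope of Irf7 was not tested. The 0 h library, whose condition is not known, had 176 RPKM of Irf1, between the 58.0 RPKM of Th2 at 16 h and the 304 and 306 RPKM of Th1 and Th0, and Irf4, Irf7, Irf8 and Irf9 also lay between Th2 and the other two. Irf5 lay within the range of the 16 h cultures, and Irf2 (31.7 RPKM) and Irf3 (66.4 RPKM) were below all 3.

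**Figure D4:**
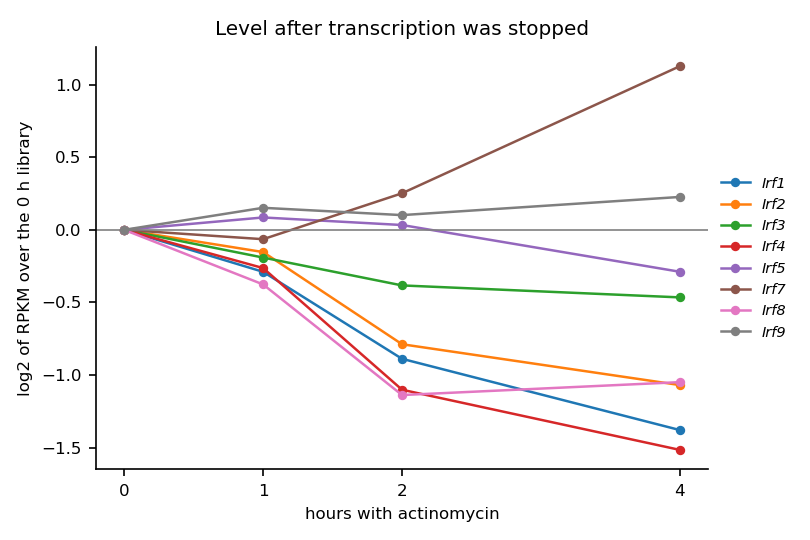
Log2 of RPKM over the 0 h library (vertical axis) against hours with actinomycin, with 1 point per library and 1 line per member. Irf4, Irf1, Irf2 and Irf8 lie at or below -1 at 4 h, Irf7 is the 1 line that ends above 1, from 7.89 to 17.2 RPKM, and Irf9, Irf5 and Irf3 stay closer to 0.

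Genes around the family in its pathways were read from lists, described by the number of tested genes that were called except for the list of receptors and signal transducers, for which single genes are given, and a few genes stand on more than 1 list. Targets of Irf1 and IFN-γ, mostly antigen-processing genes, guanylate-binding proteins and chemokines, were lower in Th2: of 20 tested, 13 were called lower (1.83% of all genes were) and none higher against Th0, with a median log2 difference of -1.47, where the median of all genes was 0.00. Against Th1, 11 of 20 were called lower (1.39% of all genes were). The largest differences of Th2 against Th1 were those of Cxcl10, a chemokine that draws Th1 cells (log2 difference -3.79, adjusted p = 1.84e-12, limma), and Cxcl9, its relative (-2.67, adjusted p = 2.24e-08, limma). They were followed by Gbp2, a guanylate-binding protein (-2.53, adjusted p = 1.92e-08, limma), and Irgm1, an immunity-related GTPase (-2.44, adjusted p = 7.14e-08, limma). In Th1 against Th0, 2 of 20 were called higher (0.177% of all genes were), again Cxcl10 and Cxcl9. Cxcl9 was low, averaging 0.308 RPKM in Th2, 1.99 RPKM in Th0 and 5.11 RPKM in Th1.

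The targets of ISGF3, the complex of Irf9, went with the time course as well. Of 22 tested, 16 were called lower at 24 h than at rest (17.4% of all genes were) and none higher, with a median of -2.52 where the median of all genes was -0.04. In Th2 against Th0, 11 of 21 tested were called lower (median -1.0, 1.83% of all genes were). In Th2 against Th1 it was 9 of 21 (median -0.84, 1.39% of all genes were). Those with the largest difference against Th1 were Ifit3, an antiviral RNA-binding protein (-2.42, adjusted p = 8.16e-06, limma), Oasl2 (-1.94, adjusted p = 2.95e-07, limma), Ifit1 (-1.91, adjusted p = 0.000429, limma) and Zbp1, a sensor of Z-form nucleic acids (-1.63, adjusted p = 1.47e-05, limma). After actinomycin, 9 of 18 tested ISGF3 targets had a called rise (8.95% of all genes had) and 1 a called fall (12% had). Irf7, itself a known target of ISGF3, was not on this list. The 10 type I and type III interferon genes listed were all under 1 RPKM on average and none could be tested. The highest value among them was 0.227 RPKM, for Ifnz.

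Among receptors, signal transducers and feedback genes, Ifng, the cytokine itself, had 60.5 to 75.0 RPKM in Th2, 206 to 499.9 RPKM in Th1 and 14.9 to 94.5 RPKM in Th0, and was lower in Th2 than in Th1 (-2.49, adjusted p = 7.09e-06, limma). Stat2, a partner of Irf9, had a log2 difference for Th2 against Th1 of -0.96 (adjusted p = 3.3e-05, limma) and Socs3, a feedback inhibitor, one of -0.77 (adjusted p = 0.0217, limma), both below 2-fold.

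Sensors and kinases act before Irf3, Irf5 and Irf7. In Th2 against Th0, 2 of 14, Ddx58 and Tlr7, were called lower (1.83% of all genes were), with a list median of -0.18, and in Th2 against Th1 limma called none of 14 (1.96% of all genes were), with log2 differences of -0.97 for Tlr7 (adjusted p = 0.00718, limma), -0.77 for Ifih1 (adjusted p = 0.000176, limma), -0.62 for Ddx58 (adjusted p = 0.0182, limma) and 0.37 for Mavs (adjusted p = 0.0177, limma). Tlr7 was low, averaging 0.918 RPKM in Th2, 2.88 RPKM in Th0 and 2.40 RPKM in Th1. Of 10 partners and corepressors, 1 was called lower in Th2 against Th0 (1.83% of all genes were) and against Th1 (1.39% were). This was Jun, a subunit of AP-1 (-1.46 for Th2 against Th1, adjusted p = 6.87e-07, limma). Batf, with which Irf4 binds composite elements, had a log2 difference of 0.61 (adjusted p = 0.0147, limma), Irf2bpl one of -0.41 (adjusted p = 0.00187, limma) and Spib one of 0.27 (adjusted p = 0.225, limma). Of 18 genes of the Irf4-dependent T cell programme, 1 was called higher in Th2 than in Th1 (0.568% of all genes were). This was Gata3, the Th2 master regulator (1.60, adjusted p = 1.24e-06, limma). The 2 called lower (1.39% of all genes were) were Tbx21, which encodes T-bet (-2.23, adjusted p = 0.000248, limma), and Il12rb2, a chain of the IL-12 receptor (-1.60, adjusted p = 0.000596, limma). Against Th0, 2 of the 18 were called lower in Th2 (1.83% of all genes were) and none higher.

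**Figure D5:**
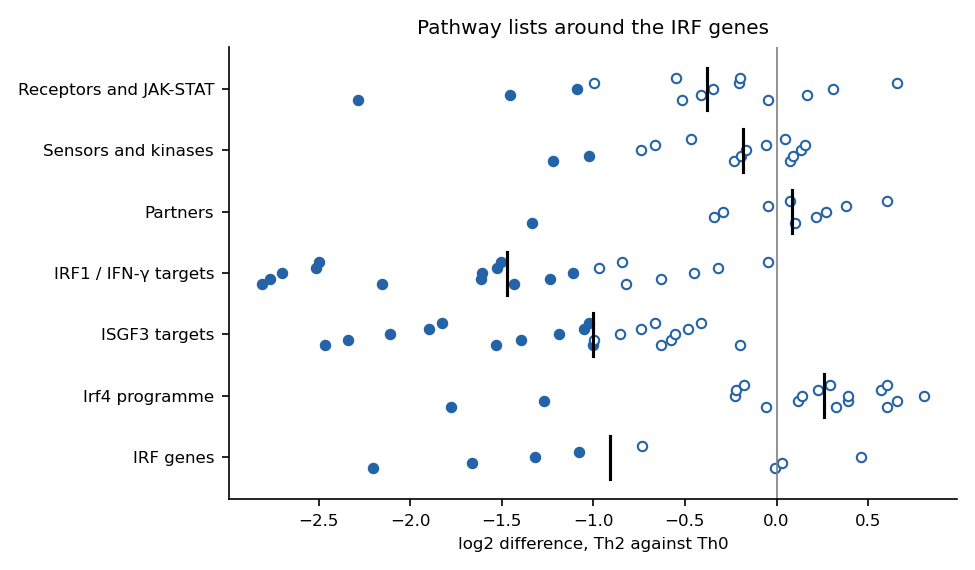
Log2 difference of Th2 against Th0 (horizontal axis, limma) for each tested gene of 6 pathway lists and for the 8 members, with filled points for called differences, black bars at the median of each list and vertical scatter without meaning. Targets of Irf1 and IFN-γ (13 of 20) and of ISGF3 (11 of 21) hold most of the filled points, all on the negative side. Of all genes, 1.83% were called lower.

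Over the 20 libraries of the time course, the pattern of each member was compared with 10896 other genes by Pearson's r of log2(RPKM + 0.5). These libraries share the same pool of cells, and the r is a description. Irf1 was most like Tap1 (r = 0.991), Gm43302 (0.988) and Tap2 (0.981), the first and last encoding the peptide transporter of antigen presentation. Irf9 was most like Pecam1 (0.989), H2-D1 (0.986) and Khnyn (0.984), and Irf7 was most like Pyhin1 (0.985), Klf2 (0.983) and BC094916 (0.981). Irf4 was most like Marcksl1 (0.983), Nfkb2, an NF-κB subunit (0.981), and Aebp2 (0.977). For Irf8 the nearest were Tbkbp1 (0.917), Tbx21 (0.912) and Psme2, a proteasome activator subunit (0.912), and for Irf2 H2-T23 (0.943), Daxx (0.931) and Tmbim6 (0.925). Irf3 had Map3k11 (0.896), Zfp653 (0.882) and Stat6 (0.882), and Irf5 had no gene above 0.723 (Rbm38, then Clta at 0.687 and Rusc1 at 0.683). Among the members themselves the closest pair was Irf7 and Irf9 (r = 0.962), followed by Irf1 and Irf2 (0.878) and Irf1 and Irf9 (0.842), and the most opposed pair was Irf4 and Irf7 (-0.599).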

How the data were processed

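The authors deposited 1 table of RPKM values per gene symbol for 24 libraries of mouse CD4+ T cells. Per the labels' processing notes BWA and GRCm38 were used, and versions, counting and strandedness are not given in the sources used here. Of 22010 entries 1 had no name and was left out. The number of mapped reads was recovered from values that are whole multiples of 1 step (728 of 1273 single-transcript genes gave the same number). For genes whose exons overlap another gene, reads could be split between them.

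The log2(RPKM + 0.5) scale, which understates changes of low genes, was tested with limma 3.58.1 in R 4.3.3 with an intensity trend, for genes averaging 1 RPKM or more in the libraries fitted, with Benjamini-Hochberg adjustment over all of them. Fits were time against rest (20 libraries), condition with time as a factor and condition by hours (18 cultures), and the slope on hours with actinomycin (4 libraries). Adjusted p and a 2-fold limit were taken from the study's array method, without its range filter, since no rule is stated for its sequencing, and slopes had no fold limit. The scripts were tested on simulated data. Coordinates are from GENCODE M21, promoters from RefSeq (GRCm38.p6, 250 bases). Levels, ratios and motif matches were computed in Python 3.11.15, using pandas 2.3.3, numpy 2.4.6 and, for exact tests, scipy 1.17.1.

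The members and gene lists were chosen with earlier results of these data known. All 8 members are named, with up to 4 genes per list by their Th2 against Th1 difference and 3 most alike genes per member. An item on 1 of the lists is not reported here. Ifnz was named after its values were seen. Alternatives were another pseudocount (0.1, 1), another filter (none, 5 RPKM on average), median-of-ratios scaling, quantile normalization, no trend, fewer libraries in the fit, a condition term, and leaving out libraries, conditions or times; leaving out single Th1 libraries was added after seeing the data.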

Additional observations from a re-analysis of the deposited data

Results flagged for a closer look

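The difference of Irf8 between conditions changed with time, by -0.111 on the log2 scale per hour for Th2 against Th0 and by -0.088 per hour for Th2 against Th1, both past the threshold of limma. Irf8 went from 65.9 RPKM at 4 h to 52.6 RPKM at 24 h in Th2, from 129 to 345 RPKM in Th1 and from 75.2 to 249 RPKM in Th0. The difference of Irf5 between Th2 and Th0 changed by -0.056 per hour, and this call was lost without 16, 20 or 24 h.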

How the results depend on the processing

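Each result was set beside its value in each refit, which gave 1701 comparisons, of which 1590 were kept. For a single member, kept means the same direction and side of the threshold, and for a count of members, within 1.5 times. For single members 31 lost a call, 21 gained one and 36 turned in sign, and 23 moved a count of members by over 1.5 times. The numbers of members called for Th2 against Th0 and Th1 against Th0 were the same in every refit. The cause of the other changes was not tested. Fitting only the 2 time points compared gave 3 members at 4 h and 2 at 8 h, and a condition term gave 3 and 2. Without a filter there was 1 member at 12 h, 1 for the slope of Th2 against Th0 and 3 after actinomycin, where Irf7 (adjusted p = 0.0592, limma) and Irf8 (adjusted p = 0.0775, limma) were lost. Leaving out a library, condition or time gave 1 to 3 members at 4, 8, 12 and 16 h, 2 to 3 at 20 h, 1 to 3 for the slopes of Th2 against Th0 and against Th1, and 3 after actinomycin. Shares of all genes called are given for the main fits only. No count from a refit is set beside the share of that refit, so whether it followed all genes cannot be read here.

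Over all genes, the 24 h log2 changes had a median of -0.04 on the deposited scale, and scaling by median of ratios gave 0.10 and quantile normalization 0.11, with 42.3%, 51.7% and 52.4% of the called genes higher. Quantile normalization also moved this share from 24.7% to 39.9% at 4 h, from 34.0% to 46.1% at 8 h, from 39.4% to 51.2% at 12 h and, for the slope of Th2 against Th1, from 25.6% to 37.7%. Members that changed sign with another scaling had small differences. With quantile normalization these were Irf1 at 12 h (-0.19) and 16 h (-0.23), Irf5 at 12 h (0.0071) and 20 h (0.0299), and Irf3 at 24 h (-0.16). With median-of-ratios scaling they were Irf2 at 12 h (0.11) and 20 h (0.014), Irf5 at 20 h (0.00085), and Irf3 for Th2 against Th0 (0.038) and for the slope of Th1 against Th0 (-0.0021). With only 12 to 24 h Irf5 had -0.19 for Th2 against Th0.

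When a library, condition or time was left out, the log2 change against rest ran from -0.29 to 0.0703 for Irf7 at 4 h, from -0.39 to 0.69 at 12 h, -0.39 to 0.81 at 16 h, -0.66 to 0.57 at 20 h and -0.92 to 0.26 at 24 h for Irf1, from -0.17 to 0.38 at 8 h, -0.18 to 0.18 at 12 h and -0.21 to 0.0638 at 20 h for Irf2, from -0.0060 to 0.081 at 24 h for Irf3 and from -0.30 to 0.029 at 12 h for Irf5. For Th2 against Th0 it ran from -0.053 to 0.048 for Irf3 and from -0.081 to 0.13 for Irf5. Slopes per hour ran from -0.0037 to 0.023 for Irf9 (Th2 against Th0), -0.0063 to 0.021 for Irf4 (Th2 against Th1), -0.017 to 0.013 for Irf2 and -0.0072 to 0.0068 for Irf3 (Th1 against Th0), and -0.12 to 0.016 for Irf5 after actinomycin. No pairing of libraries by replicate was possible because the labels number only the resting libraries as replicates. Tests between conditions took the time point as a factor, whereas ranges and medians of a condition were set side by side over all hours. Counting error weighs most for Irf7 in Th2 at 24 h, the lowest value of any member, and for Irf5, the lowest on average.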
